A study of Schizosaccharomyces pombe with 3 samples.

Results

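Of the 5368 unique junctions counted in the fission yeast *prp4-as2* strain, 202 (3.76%, 95% interval 3.27 to 4.31) were transcribed but almost never seen spliced. They were selected by their reads, with at most 2 split reads in each of 3 libraries and at least 1 unsplit read in any library, and they lay in 182 of 2546 genes. A split read joins 1 exon to the next and stands for spliced RNA. An unsplit read runs without a break across the 3 bases around the 5’ exon junction and stands for RNA in which the following sequence was still present. The scarcity of split reads is therefore given by the selection and is described here, not tested. The unsplit reads over time, the positions and sequences of the junctions and the other junctions of their genes did not enter it, apart from the single unsplit read.

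All 3 libraries came from cells whose only Prp4 kinase was the analogue-sensitive product of *prp4-as2*, and a wild-type library was not analysed here. The cells were untreated (0 min) or had grown for 30 or 60 min with 10 μM 1NM-PP1, the ATP analogue that blocks this kinase. Strand was kept in the libraries, which were built from oligo-dT selected mRNA, and each condition had 1 library. Differences between times thus compare single libraries, and no p-value was computed. The libraries held 743457 to 910440 junction reads, and unsplit reads were 6.92% of these at 0 min, 30.0% at 30 min and 22.8% at 60 min. Levels are given as reads per 1000000 junction reads of a library, where 1 read is worth 1.10, 1.17 and 1.35 reads per 1000000 junction reads at 0, 30 and 60 min. Intervals are exact 95% binomial intervals (Clopper-Pearson for shares, conditional binomial for ratios of reads). They cover counting error alone, since PCR reads without molecular identifiers are not independent molecules.

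Before an intron is removed, snRNA U1 pairs with the last bases of the exon and the first bases of the intron at the 5’ SS, and Prp4 kinase acts later, when the assembled spliceosome is activated. Some fission yeast introns carry a small nucleolar RNA (snoRNA), which guides the modification of ribosomal RNA and is usually trimmed out of the intron after the host transcript has been spliced. Introns of tRNA genes are removed by an endonuclease and a ligase, without the spliceosome. Several meiotic genes of *S. pombe*, *crs1* among them, are known to be transcribed at a low level in dividing cells while their introns are removed only in meiosis.

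The 202 junctions were of 5 kinds, sorted by what the RefSeq annotation of assembly ASM294v3 shows at the last exon base. At 135 of them an intron of at least 20 nt began. At 13 the last base was the 3’ end of a small RNA that lay inside an intron of the named gene. At 10 a tRNA intron began, at 3 a gap of 1 or 2 nt between annotated exons, and at the remaining 41 the reference had no intron. The 13 small RNA ends held 4702 of the 8046 unsplit reads (58.4%), the 135 introns held 1546 (19.2%) and the 41 junctions without a reference intron held 1339 (16.6%). Most junctions were read thinly. The median was 6 unsplit reads over the 3 libraries together, 78 junctions had 1 to 3 reads, 75 had at least 10, and the 4 most read junctions held 45.3% of these unsplit reads. In 90 of the 202 no split read was found in any library. With few reads the share of spliced RNA is poorly bounded. Its upper 95% limit over the 3 libraries was under 50% in 84 junctions and under 10% in 21, so the other junctions are not shown to be unspliced by these counts.

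**Figure D1:**
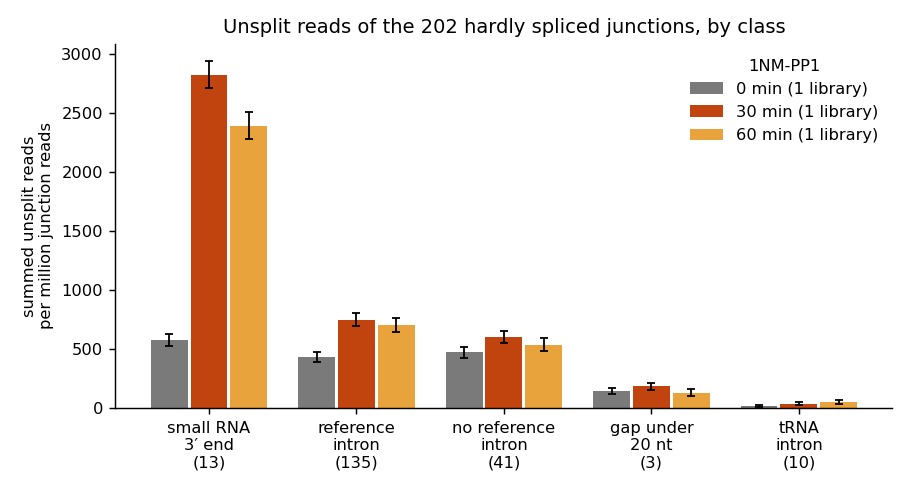
Summed unsplit reads of the 202 junctions per 1000000 junction reads (y axis) for the 5 kinds of junction (x axis, number of junctions in brackets) at 0, 30 and 60 min of 1NM-PP1. Bars are single libraries and error bars are 95% Poisson intervals for counting error. The small RNA ends stand at 572, 2820 and 2390 per 1000000 junction reads, above each other kind at every time.

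Sequences of 22 bases around 8 of these junctions are printed to show how the kinds differ, 10 bases before and 12 after the junction, 5’ to 3’ in the direction of the transcript. They were read from RefSeq ASM294v3. In the first 4, capitals mark CTGA, the box D motif that stands near the 3’ end of C/D snoRNAs. In the other 4, capitals mark the first bases after the junction, which is GT at a 5’ SS. The windows are chrII:3654321-3654342 (minus strand) for *fta3*, chrII:1791731-1791752 (minus) for *rpl701*, chrI:2440409-2440430 (plus) for *cpc2* and chrI:1713062-1713083 (plus) for *rlp7*. They are chrI:636167-636188 (plus) for *mug161*, chrI:2691789-2691810 (plus) for *med11*, chrI:5052224-5052245 (minus) for *pik1* and chrI:2588019-2588040 (plus) for *rrp36*.
fta3, end of snoR47: cataCTGAgggccaatcattca
rpl701, end of snoR39b: gggaCTGAttactgtttttcta
cpc2, end of snoU24b: tgttCTGActtttccaattgtt
rlp7, end of snoR39a: cggCTGAttcatatattttgta
mug161, intron III: aaagttggacGTgagttccgct
med11, single intron: caaagctcatGTaaattattac
pik1, intron I: ttcgggaaatGTatgacttttg
rrp36, no reference intron: aacaaagataATgacagaaaaa
The first 4 have no GT after the junction, and the last begins with AT.

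As a kind, the ends of small RNAs inside introns held the most unsplit reads. All 13 small RNA ends of the table were among the 202, and none had a split read in any library. The reference starts no intron at these bases, so both facts go with the position and are not a result. They say nothing about splicing of the host intron. The reference calls 12 of these RNAs snoRNAs and the other, snR48, an snRNA. CTGA stood in the last 10 bases in 8 of the 13, against 149 of 5349 other nuclear junctions (2.79%). The RNAs were 47 to 128 nt long (median 81) in host introns of 157 to 481 nt (median 253), and 49 to 258 nt of intron followed them. Each host intron had its own 5’ SS junction in the table, with 9573 split reads in untreated cells over the 13 introns, and split reads outnumbered unsplit ones there in 12 of the 13, all but *pfd1*.

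The host genes included those of ribosomal proteins, of ribosome assembly and of purine synthesis. In *fta3* (SPBP8B7.12c), which encodes a CENP-H-like kinetochore protein, snoR47 lies in a 3’ UTR intron. The junction after it held 105 unsplit reads at 0 min, 817 at 30 min and 528 at 60 min. Relative to junction reads this was 8.31-fold more at 30 min (6.77 to 10.3) and 6.16-fold more at 60 min (4.99 to 7.67). The 5’ SS of the same intron held far fewer unsplit reads, 8, 55 and 36, beside 14, 2 and 2 split reads. Both positions were thus low at 0 min and high at 30 min, at levels 13.1-fold apart in untreated cells.

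In SPAC29A4.02c, the gene of the gamma subunit of translation elongation factor EF-1, the end of snoR38 had 53, 364 and 346 unsplit reads at 0, 30 and 60 min. Its ratio to 0 min was 7.33 at 30 min (5.49 to 9.98) and 7.99 at 60 min (5.97 to 10.9). Here the 5’ SS of the host intron had more unsplit reads than the snoRNA end, 64, 726 and 563, beside 2356, 1158 and 946 split reads. The end of snoR39b in *rpl701* (SPBC18H10.12c), encoding an L7-like ribosomal protein and RNase MRP subunit, had 49, 383 and 256 unsplit reads, 8.35-fold more at 30 min (6.19 to 11.5). At the 5’ SS of that intron 2, 40 and 35 unsplit reads were counted beside 285, 212 and 190 split reads. Only in the first of these 2 genes did the start of the intron hold more unsplit reads than the end of the snoRNA.

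The other ends differed in how much they changed. In *nog2* (SPAC6F6.03c), encoding a GTPase of ribosome export, the end of snR191 had 2, 59 and 32 unsplit reads, a ratio of 31.5 at 30 min with a wide interval (8.34 to 266). In *gua1* (SPBC2F12.14c), encoding IMP dehydrogenase, the end of snoR54 had 3, 52 and 39, a ratio of 18.5 (5.99 to 92.7). Both started from 2 or 3 reads, which is why the intervals are wide. At the low end stood *pfd1* (SPBC1D7.01), which encodes prefoldin subunit 1, with 120, 160 and 168 reads after snoZ15 and a ratio of 1.42 (1.12 to 1.82). In *ade4* (SPAC4D7.08c), encoding the amidophosphoribosyltransferase of purine synthesis, the counts after snoR58 were 27, 46 and 32, 1.82-fold more at 30 min (1.11 to 3.04) and 1.45-fold at 60 min (0.842 to 2.52). In *cpc2* (SPAC6B12.15), the gene of the ribosomal protein RACK1, the counts after snoU24b were 86, 186 and 115, a ratio of 2.31 (1.78 to 3.02). These 3 had the lowest ratios of the 13 at 30 min.

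Between these extremes lay 5 more genes. *rps3* (SPBC16G5.14c), encoding ribosomal protein uS3, had 28, 117 and 89 unsplit reads after snR48. *rlp7* (SPAC664.06), encoding a ribosome biogenesis protein, had 29, 107 and 85 after snoR39a. *ipa1* (SPBC1734.10c), encoding an mRNA processing protein, had 6, 49 and 40 after the candidate snoRNA SPNCRNA.498. They were 3.94-fold to 8.72-fold higher at 30 min. *spt20* (SPAC4D7.10c), encoding a SAGA subunit, had 8, 35 and 19 after snoU24. *ero11* (SPBC4F6.16c), encoding an ER oxidoreductin, had 5, 30 and 27 after snoU18, with ratios of 4.67 and 6.41 for the last 2 genes at 30 min. In all 13 genes the end had more unsplit reads at 30 min and at 60 min than at 0 min, and the lower limit of the ratio was above 1 in 13 at 30 min and in 12, all but *ade4*, at 60 min.

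Over the 13 genes the end reads summed to 521 at 0 min, 2405 at 30 min and 1776 at 60 min, ratios of 4.93 (4.48 to 5.43) and 4.17 (3.78 to 4.61). Without *fta3* they were 4.08 (3.66 to 4.55) and 3.67 (3.29 to 4.11). The unsplit reads at the 13 host 5’ SS summed to 251, 1297 and 1009, ratios of 5.52 (4.82 to 6.34) and 4.92 (4.28 to 5.68). At these 5’ SS the split reads went to 0.713 (0.691 to 0.736) and 0.693 (0.670 to 0.717) of the untreated level. The intervals of the end and the 5’ SS overlapped in 12 genes at 30 min, all but *nog2*, and in 13 at 60 min. A change is called here when a junction with at least 10 unsplit reads in the 2 libraries together is at least 2-fold higher or lower after 1 read is added to both counts. By that rule 11 of the 13 ends were higher at 30 min and 10 at 60 min. Of all junctions with enough reads, 84.8% were higher at 30 min and 75.9% at 60 min, so a share of this size is the background and says nothing particular about these ends. More RNA in each cell and more cells that hold it cannot be told apart in such cultures.

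**Figure D2:**
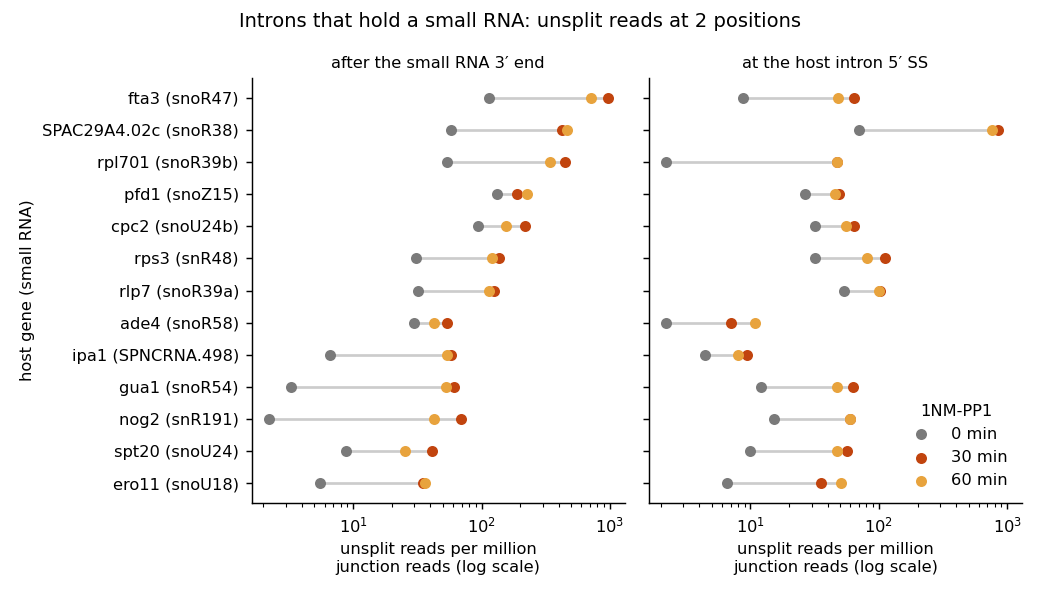
Unsplit reads per 1000000 junction reads (log scale) in the 13 genes with a small RNA inside an intron (rows), right after the 3’ end of the small RNA (left) and at the 5’ SS of the host intron (right). Points are single libraries at 0, 30 and 60 min. In *fta3* the left values (105, 817 and 528 reads) are far to the right of those at the 5’ SS (8, 55 and 36 reads), while in SPAC29A4.02c the 5’ SS has more reads than the snoRNA end at every time.

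The 135 junctions at a reference intron came from 116 genes and held 389, 637 and 520 unsplit reads at 0, 30 and 60 min beside 213 split reads in all. Their summed unsplit reads were 1.75-fold higher at 30 min (1.54 to 1.99) and 1.64-fold higher at 60 min (1.43 to 1.87), against 4.43-fold (4.39 to 4.47) and 3.36-fold (3.33 to 3.39) over the 5051 other reference introns. With enough reads for a call were 26 of the 135 at 30 min, of which 11 were higher, 2 lower and 13 in between. At 60 min 20 of the 135 had enough reads, with 6 higher and 1 lower. Of all junctions with enough reads, 84.8% were higher and 0.669% lower at 30 min, and 75.9% and 0.64% at 60 min. The selection bears on this difference, because a junction with many split reads before inhibition could not enter it.

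The most read intron of the 135 was intron III of *mug161* (SPAC1F3.09), 57 nt long, in the gene of a CwfJ family splicing factor. It had 85, 58 and 65 unsplit reads at 0, 30 and 60 min and 2, 0 and 0 split reads. Relative to junction reads the unsplit level was 0.729 of the untreated one at 30 min (0.513 to 1.03) and 0.936 at 60 min (0.667 to 1.31), so no change was detectable at this depth. The 3 other introns of the gene were spliced before inhibition, with 43, 82 and 118 split beside 1, 8 and 23 unsplit reads for introns I, II and IV. At 30 min they had 10, 27 and 6 split beside 16, 93 and 40 unsplit reads. Only intron III was thus unspliced at all 3 times. Its 5’ SS matches 6 of 9 bases of the U1 consensus, and CTAAC, a match to the branch motif, stands near its end.

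The single intron of *med11* (SPAC644.10), which encodes a subunit of the mediator complex, is 60 nt long and had 27, 35 and 42 unsplit reads and no split read. In its last 25 bases TTGAT is the last match to the branch motif YTNAY (Y is C or T, N any base). The match is shown in capitals with the intron end at the right, and no branch point was mapped.
med11: taggaattattatttTTGATactag
mug161: caccgtcaCTAACttcttttctcag
The unsplit level of *med11* was 1.38-fold that at 0 min after 30 min (0.814 to 2.38) and 1.90-fold after 60 min, where the interval lay above 1 and reached 3.21. In *meu1-1* (SPAC1556.06), a gene named for its induction in meiosis, the intron of 73 nt had 19, 31 and 29 unsplit and 2, 1 and 0 split reads. In *dni2* (SPBC4.01), encoding a claudin-like protein of cell fusion, the 151 nt intron had 17, 26 and 17 unsplit and 0, 0 and 2 split reads. The 95% intervals of both ratios at 30 min include 1, at 1.74 (0.954 to 3.26) and 1.63 (0.853 to 3.21). All 3 introns were the only junction of their gene in the table.

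Some introns had few reads of either kind before inhibition and many unsplit reads after it. Intron I of *pik1* (SPAC22E12.16c), encoding a phosphatidylinositol 4-kinase of the Golgi, is 49 nt long. It had 3, 37 and 25 unsplit and 2, 1 and 1 split reads, a ratio of 13.2 at 30 min (4.17 to 66.8) and 10.2 at 60 min (3.11 to 52.8). Intron II of that gene, also 49 nt, stayed spliced, with 12, 21 and 19 split beside 0, 1 and 3 unsplit reads. Intron III had 51, 20 and 22 split and 4, 39 and 25 unsplit reads. The 3 introns of *pik1* thus differed at 30 and 60 min. At 0 min introns II and III were both mostly split, and intron I had too few reads to compare.

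In *vps1302* (SPBC16C6.02c), encoding a lipid transfer protein, intron II had 2, 20 and 11 unsplit and 1, 0 and 2 split reads, a ratio of 10.7 at 30 min (2.59 to 94.2). Intron I of the same gene had 5, 22 and 11 split reads and 0, 0 and 1 unsplit. In *wtf21* (SPCC1739.15), of the *wtf* family of meiotic drive genes, intron IV had 0, 13 and 3 unsplit and 1, 0 and 0 split reads. Introns I and II had split reads alone, and intron III had 1, 2 and 0 unsplit beside 7, 6 and 3 split reads. Intron V had more unsplit reads than intron IV, 6, 22 and 8, beside 5, 6 and 10 split reads. Counts of *wtf* genes are less certain than others, since these genes have close copies and only uniquely mapped reads were kept.

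**Figure D3:**
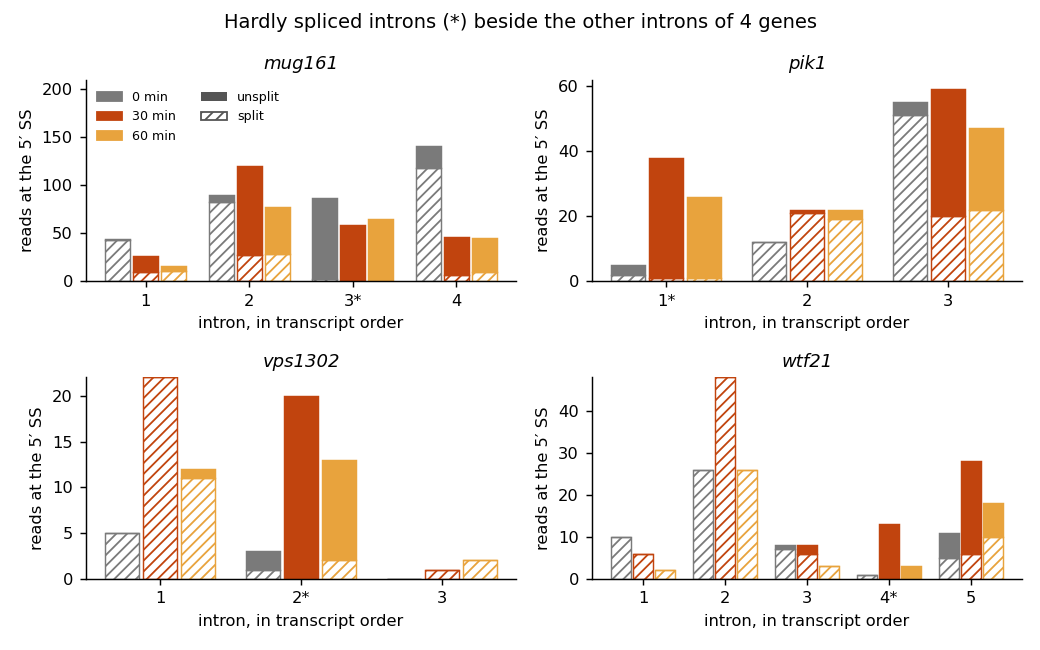
Split (hatched) and unsplit (filled) reads at each 5’ SS (y axis, reads in single libraries) of *mug161*, *pik1*, *vps1302* and *wtf21*, with introns in transcript order (x axis) at 0, 30 and 60 min. An asterisk marks the hardly spliced intron. Intron III of *mug161* had 85 unsplit reads at 0 min, while its neighbours were mostly split.

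Lower counts after inhibition were seen at few introns. In SPBC1348.12, a subtelomeric gene of a DNA-binding transcription factor, the 135 nt intron had 25, 8 and 2 unsplit reads and 1, 0 and 0 split reads. Its ratio was 0.342 at 30 min (0.133 to 0.782) and 0.098 at 60 min (0.0112 to 0.393). The other 3 junctions of the gene went from 7, 8 and 19 unsplit reads at 0 min to 0, 1 and 3 at 60 min, so the reads were fewer along the whole gene. The intron of SPCC4F11.05, whose product is uncharacterized, had 16, 4 and 9 unsplit reads and no split read, a ratio of 0.267 at 30 min (0.065 to 0.828) and 0.689 at 60 min (0.268 to 1.66). In *rsn1* (SPBC354.08c), encoding a calcium transporter, the 36 nt intron had 12, 7 and 8 unsplit reads, with intervals that include 1 at both times. Both introns of SPAC24B11.14, also uncharacterized, belonged to the 202, with 17, 14 and 13 unsplit reads at the first and 9, 6 and 6 at the second and no split read.

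Around the selection limit the counts ran on without a gap. Among the 58 junctions with 2 split reads in at least 1 library as their highest, *mug161*, *meu1-1* and *pik1* had the most unsplit reads. Just outside it were 54 junctions with 3 split reads as the highest. Of these, SPAC27E2.14 had 16, 77 and 49 unsplit beside 1, 3 and 0 split reads, and *ago1* (SPCC736.11), which encodes Argonaute, had 18, 57 and 45 beside 3, 3 and 2. The third was *mug174* (SPCC1682.03c), encoding a coilin, with 20, 55 and 41 beside 3, 0 and 0.

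The U1 match of the 135 introns was lower than that of other introns. On average 5.61 of the 9 bases at positions -3 to +6 (SE 0.0917) matched the consensus CAG/GTAAGT, counted from the junction, against 6.20 (SE 0.0147) in 4249 other reference introns with more than 10 reads in each library. Among the 44 introns with at least 10 unsplit reads in all it was 5.18 (SE 0.163). A match of at most 4 bases was found in 21 of 135 introns (15.6%, 9.89 to 22.8) and in 15 of the 44 (34.1%, 20.5 to 49.9), against 104 of 4249 (2.45%, 2.0 to 2.96). Position +3 was A in 77.0% of the 135 (69.0 to 83.8) and in 93.4% of the others (92.6 to 94.1). Position +5 was G in 68.9% (60.4 to 76.6) and in 88.9% (87.9 to 89.8). The last exon base was G in 46.7% (38.0 to 55.4) and 57.4% (55.9 to 58.8). These intervals do not overlap, whereas those for C at -3, A at -2, A at +4 and T at +6 do, as for T at +6 (58.5%, 49.7 to 66.9, against 66.2%, 64.8 to 67.6). Introns are not replicates, and those of 1 gene can resemble each other.

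Read the other way, the share of hardly spliced introns was higher where the 5’ SS matched less. Of 124 reference introns with 4 matching bases and at least 10 unsplit reads, 14 were among the 202 (11.3%, 6.31 to 18.2). With 5 bases it was 10 of 932 (1.07%, 0.516 to 1.96), with 6 bases 14 of 1762 (0.795%, 0.435 to 1.33) and with 7 bases 5 of 1158 (0.432%, 0.14 to 1.0). With 8 bases it was 0 of 305, which allows up to 1.20%. Introns with neither A at +3 nor G at +5 were 7 of 23 (30.4%, 13.2 to 52.9), and those with both 19 of 3499 (0.543%, 0.327 to 0.847). Windows of 22 bases around 3 introns with 4 matching bases show such sites, read as above from chrII:4331844-4331865 (minus), chrI:230672-230693 (plus) and chrIII:2010592-2010613 (plus) of RefSeq ASM294v3. Capitals mark the first bases of the intron.
vps1302, intron II: gaaacggagtGTatgagattat
SPAC24B11.14, intron I: taaagcttttGTatttaaaaat
SPCC4F11.05, single intron: acgtttctttGTtattaagtca
The last of them has neither A at +3 nor G at +5.

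**Figure D4:**
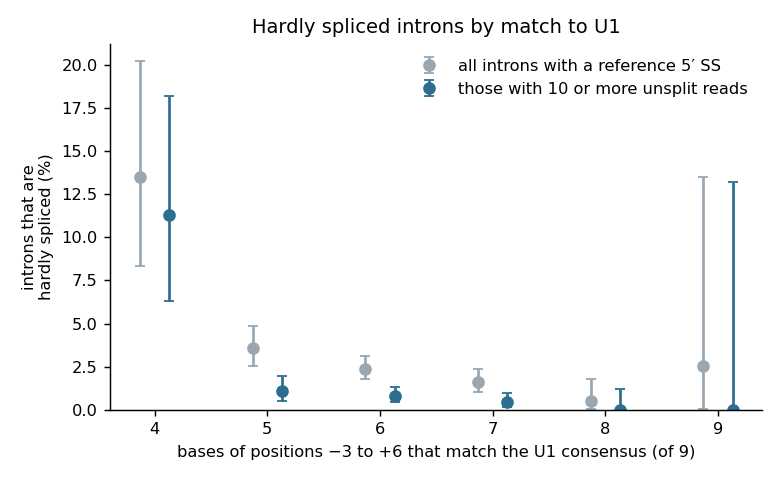
Share of reference introns that belong to the hardly spliced junctions (y axis, percent) by how many of the 9 bases at the 5’ SS match the U1 consensus (x axis), for all introns (grey) and for those with at least 10 unsplit reads (blue). Bars are 95% Clopper-Pearson intervals. The blue share is 11.3% at 4 bases and 1.07% or less at 5 to 9 bases.

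The introns were also shorter. Their median length was 49 nt (quartiles 43 to 60.5) against 56 nt (46 to 89) among the 4249 others. At most 45 nt were 35.6% (27.5 to 44.2) against 22.5% (21.3 to 23.8). The branch motif YTNAY stood in the last 40 nt of 97.8% (93.6 to 99.5) and 99.2% (98.8 to 99.4). Nearly every intron meets so loose a motif, so this share could hardly differ. The last match was CTAAC in 25.2% (18.1 to 33.4) against 33.1% (31.7 to 34.6). It was CTAAC in 18.2% (8.19 to 32.7) of the 44 with at least 10 unsplit reads. For CTAAT the shares were 20.7% (14.2 to 28.6) and 18.3% (17.1 to 19.5). The intervals of the branch motif shares all overlap, whereas those for introns of at most 45 nt do not. All 135 introns ended in AG. Of the 111 within coding sequence, 34.2% (25.5 to 43.8) had a length that is a multiple of 3 and 82.0% (73.6 to 88.6) a stop codon in frame, against 32.3% (30.8 to 33.7) and 86.9% (85.8 to 87.9). Neither difference exceeded its interval.

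By position, 3’ UTR introns had the highest share when all depths were counted, leaving aside the 4 introns of noncoding RNAs. Of 55 introns in 3’ UTRs, 16 were among the 202 (29.1%, 17.6 to 42.9), against 111 of 5023 introns within coding sequence (2.21%, 1.82 to 2.66) and 7 of 104 in 5’ UTRs (6.73%, 2.75 to 13.4). The 16 were thinly read, with 62 unsplit reads in all, and only 2 had at least 10. With at least 10 unsplit reads required, the shares were 2 of 24 in 3’ UTRs (8.33%, 1.03 to 27), 1 of 88 in 5’ UTRs (1.14%, 0.0288 to 6.17) and 41 of 4200 in coding sequence (0.976%, 0.701 to 1.32), with overlapping intervals. The best read were the 3’ UTR introns of *meu10*, with 1, 10 and 1 unsplit reads, and of SPBP22H7.04, with 3, 3 and 6. Among 5’ UTR introns, that of *omh3* (SPCC777.07), encoding a mannosyltransferase, had 1, 9 and 11 unsplit reads and 1 split read, a ratio of 9.61 at 30 min (1.33 to 421).

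Meiosis and sporulation genes were frequent among the 202, by a list drawn up with earlier results of these data known. Its share is a description, not an independent check. Of 189 junctions in 91 genes of this list, 43 in 32 genes met the selection (22.8%, 17.0 to 29.4), against 3.76% of all junctions. These junctions were also low in reads, with a median of 1 read of either kind at 0 min against 12 at the other 146 junctions of the list and 62 at all others outside the 202. With at least 10 unsplit reads required, the share was 12 of 85 (14.1%, 7.51 to 23.4) against 75 of 4383 junctions (1.71%, 1.35 to 2.14). The 43 had 164, 211 and 187 unsplit and 29, 15 and 19 split reads. Their ratio at 30 min was 1.37 (1.12 to 1.70) and, without *mug161*, 2.07 (1.57 to 2.75). Without *mug161* they had 79 unsplit and 27 split reads at 0 min. Part of their untreated reads was thus spliced, and most of the 43 are too thinly read to be shown unspliced.

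All 4 introns of *crs1* (SPBC2G2.09c), a meiotic cyclin gene, belonged to the 202. The first had 6, 13 and 12 unsplit and 1, 2 and 0 split reads, and all 4 together had 14, 22 and 23 unsplit and 4, 3 and 0 split reads. In *meu13* (SPAC222.15), whose product pairs homologous chromosomes, 3 of 4 introns belonged, with 4, 11 and 14 unsplit and 1, 0 and 0 split reads in sum. Both introns of *mek1* (SPAC14C4.03), encoding a meiotic kinase, belonged as well, with 1, 12 and 2 unsplit and 0, 1 and 1 split reads in sum. Each of these 3 genes had unsplit reads in every library. A further gene with 3 such junctions, *rti1* (SPBC119.14) of DNA repair, had 0, 1 and 4 unsplit and 3, 1 and 0 split reads in sum, so that its reads at 0 min were all split.

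Of 96 *wtf* junctions 11 belonged (11.5%, 5.86 to 19.6), and of 28 subtelomeric and transposon junctions 3 (10.7%, 2.27 to 28.2), all 3 in SPBC1348.12 and *dak2*. Genes that the deposited counts list by a systematic name alone had 71 of 1819 (3.90%, 3.06 to 4.90), near the share of all junctions. Some of these genes, such as *rrp36* and *pfd1*, have a symbol in the reference. Of 88 junctions in cytosolic ribosomal protein genes the 2 that belonged were the snoRNA end of *rpl701* and the small RNA end of *rps3*. None of 108 junctions in genes of the spliceosome and its snRNPs belonged, which allows a share of up to 3.36%, while *mug161* stood in the meiosis list. From the noncoding RNA list 1 of 9 belonged, in *prl57*, with 2, 5 and 2 unsplit reads.

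For 41 junctions the reference had no intron at that base. Of these, 27 lay 2 to 1130 nt before the reference start of their gene (median 228 nt), 9 lay in an exon and 3 in the gene outside its exons, and 2 lay in genes that the reference does not list. GT followed the junction in 26 of the 27 and in 34 of the 41. The 27 had 98 unsplit reads in all, whereas the 9 in exons had 921. Most read was *rrp36* (SPAC823.04), encoding an rRNA processing protein, with 228, 298 and 216 unsplit reads and no split read at a junction followed by AT. Its ratio was 1.40 at 30 min (1.17 to 1.67) and 1.16 at 60 min (0.959 to 1.40). The upstream intron of *rrp36* was spliced, with 96, 82 and 77 split beside 20, 46 and 35 unsplit reads.

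SPAC1F12.03c, not in the reference, had 105, 59 and 67 unsplit and 1, 0 and 1 split reads, a ratio of 0.600 at 30 min (0.429 to 0.833). A junction in the Golgi tether gene *uso1* (SPAC29E6.03c), in a reference exon and followed by GT, had 14, 6 and 14 unsplit reads and no split read. In *mrp49* (SPCC1442.19), encoding a mitochondrial ribosomal protein, the counted base lay 11 nt past the 5’ SS of the reference intron, and 5, 36 and 21 unsplit reads gave a ratio of 7.69 at 30 min (3.01 to 25.1). Likewise 21 nt and 4 nt past a reference 5’ SS were the junctions in *wtf3*, with 1, 11 and 8 unsplit reads, and *wtf22*, with 1, 1 and 0. At these 3 the unsplit reads lay in the intron itself, past the 5’ SS of the reference.

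The gaps of 1 or 2 nt cannot be introns. Of the 3, *new11* (SPAC23A1.20) had 117, 143 and 90 unsplit reads and no split read, a ratio of 1.31 at 30 min (1.02 to 1.68) and 0.942 at 60 min (0.708 to 1.25). SPBC18E5.15 had 9, 12 and 3 and *tam41* 3, 1 and 3. Of the 25 tRNA introns counted, 10 belonged (40%, 21.1 to 61.3), with 14, 27 and 37 unsplit and 5 split reads in all. The best read was SPBTRNATYR.02, with 9, 9 and 10 unsplit reads around its 10 nt intron. SPBTRNALEU.05 had 0, 5 and 5, and SPCTRNASER.10 had 1, 3 and 6. Summed over the 10, the ratio was 2.06 at 30 min (1.04 to 4.25) and 3.24 at 60 min (1.71 to 6.48).

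Over all 202 junctions the unsplit reads were 1481 at 0 min, 3737 at 30 min and 2828 at 60 min, or 1630, 4380 and 3800 per 1000000 junction reads. The ratios were 2.69 (2.54 to 2.86) and 2.34 (2.20 to 2.49), against 4.37 (4.34 to 4.41) and 3.33 (3.29 to 3.36) over the 5166 other junctions. Without the small RNA ends they were 1.48 (1.36 to 1.61) and 1.34 (1.23 to 1.47). Among the 54 with enough reads at 30 min, 26 were higher and 4 lower, with a median fold of 1.86 (quartiles 1.11 to 5.78), against 4.63 (2.73 to 7.48) over 3981 other junctions. At 60 min 18 of 46 were higher and 2 lower, with a median fold of 1.78 (1.18 to 3.77) against 3.40 (2.07 to 5.71). Without the small RNA ends 15 of 41 and 8 of 33 were higher. Of all junctions with enough reads, 84.8% were higher and 0.669% lower at 30 min. At 60 min these shares were 75.9% and 0.64%. Split and unsplit reads were also counted together, at junctions with at least 10 such reads in the 2 libraries. The median fold of other junctions was then 1.08 at both times. Among the 202 it was 1.74 over 60 junctions at 30 min and 1.67 over 53 at 60 min. Without the small RNA ends it was 1.5 over 47 and 1.43 over 40, and the rest of the 202 had too few reads. The selection bears on these medians too. With at most 2 split reads per library, the joint count of the 202 is nearly their unsplit reads alone. At the other junctions it is mostly split reads, so the medians do not compare RNA levels.

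**Figure D5:**
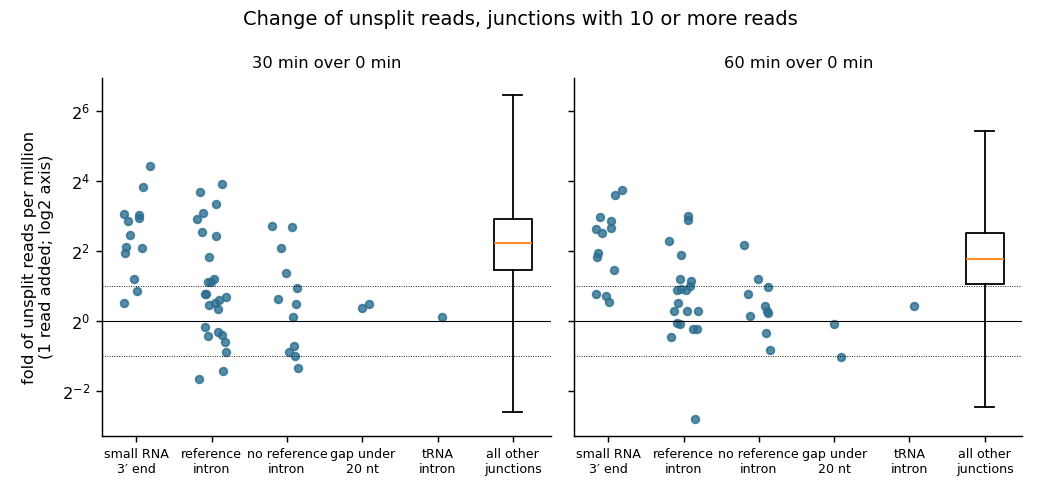
Fold of unsplit reads per 1000000 junction reads over 0 min, with 1 read added (y axis, log2 spacing), for hardly spliced junctions with at least 10 unsplit reads in the 2 libraries (points) by kind, and for all other junctions (box with median and quartiles, whiskers to the lowest and highest value), at 30 min (left) and 60 min (right). Dotted lines mark 2-fold. The small RNA ends (median 5.52 at 30 min) lie around the other junctions (4.63), and most reference introns (median 1.65) lie below their median.

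The members' share of all unsplit reads was 2.35% at 0 min, 1.46% at 30 min and 1.67% at 60 min. Pooled, 92.45% of their reads were unsplit at 0 min (91.04 to 93.69), 98.39% at 30 min (97.94 to 98.77) and 97.65% at 60 min (97.03 to 98.17), which the selection sets to be high. At 0 min 43 of the 202 still had more split than unsplit reads, at 30 min 9 and at 60 min 13. Other junctions of the same gene were in the table for 138 of them. In 74 of the 138 at least 1 other junction had more than 10 reads and more split than unsplit reads in untreated cells. The 74 include every small RNA end. For most of those ends the only other junction was the 5’ SS of the intron that holds the small RNA, so splicing elsewhere in the gene is not shown there. For the 135 reference introns these were 44 of 101. Several such junctions fell in 1 gene in 16 cases, 13 genes with 2 and 3 with 3 or more, and in 5 genes with more than 1 junction every junction belonged.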

How the data were processed

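Splicing was measured by RNA-seq of *prp4-as2* cells at 0, 30 and 60 min of 10 μM 1NM-PP1, 1 library each. Per the study's methods, the authors trimmed adapters with TagDust, mapped reads with TopHat 2.0.5 using read orientation and Ensembl annotation ASM294, and kept unique hits. The labels name total RNA, the methods oligo-dT selected mRNA. The deposited counts are raw split and unsplit reads over the 3 bases at each 5’ exon junction. The deposited log2 values (RSEI) equal split over unsplit reads after adding 1 to both. Of 5374 lines, 6 repeat a junction and were dropped, which left 5368 junctions. The middle base is the last exon base. RefSeq ASM294v3 has an intron or gap starting there for 5230 of them. It lists 2539 of 2546 genes, and coordinates are 1-based.

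The members, gene lists and tests were chosen with earlier results of these data known. Folds are per 1000000 junction reads with 1 read added and a minimum of 10 unsplit reads over 2 libraries. With 1 library per condition no test was possible, and only intervals for counting error were computed. Junctions are not replicates. Depth was 743457 to 910440 junction reads per library. Introns are of at least 20 nt. The last match to YTNAY in the last 40 nt was taken as the branch motif, which does not map the branch point. Gene lists go by symbol or systematic name. The fta genes, written into the meiosis list in error, were left out of it, because they encode kinetochore proteins. Named are the 20 most read junctions, the 5 highest and 5 lowest folds at each time among those with at least 20 unsplit reads, genes with 3 or more such junctions, the 10 most read with a spliced neighbour, the 3 most read of each list, and 3 on either side of the limit. No gene the study names in its text held one. Outside that rule, *vps1302*, SPAC24B11.14, *mek1*, *omh3*, *meu10*, SPBP22H7.04, *mrp49*, *wtf22*, SPBC18E5.15 and *tam41* were chosen after their values were seen. Scripts were checked on simulated counts. Alternatives changed the limits, the scaling and the read minimum. Python 3.11.15 with pandas 2.3.3 and scipy 1.17.1 was used.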

Additional observations from a re-analysis of the deposited data

How the results depend on the processing

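No paired analysis was possible because each condition had 1 library. The number of junctions, 202, rests on the limits. It was 90 with no split read allowed, 358 with at most 5, 75 with at least 10 unsplit reads in all and 403 without the 0 min library. It was 144 with at most 1 split read, 203 with every line counted, 194 and 191 without the 30 or 60 min library, and 135 over reference introns alone. The median folds stayed above 1 under every alternative run, at 1.5 to 1.91 at 30 min and 1.34 to 1.84 at 60 min. Of the counts of junctions at least 2-fold higher, 26 at 30 min became 16 with at least 20 reads and 15 without the small RNA ends, and 18 at 60 min became 8 without those ends. Lower ones went from 4 to 8 at 30 min with a fold limit of 1.5 and from 2 to 1 at 60 min with at least 20 reads. The read minimum and the removal of the small RNA ends left fewer junctions to count, whereas the fold limit of 1.5 was applied to the same 54. The ratio of summed unsplit reads went from 2.69 to 2.27 at 30 min and from 2.34 to 2.05 at 60 min without *fta3*, and to 1.48 and 1.34 without all small RNA ends, so these junctions carry much of it. With at least 10 unsplit reads the pooled unspliced share was 96.75%, 99.24% and 99% in place of 92.45%, 98.39% and 97.65%, and the mean U1 match of the introns was 5.18 in place of 5.61. The fta genes moved the share of the meiosis list from 22.8% to 22.4%. The alternatives without small RNA ends, without *fta3*, over reference introns alone and with the read minimum on gene lists and U1 classes were added after seeing the data. Depth limits most junctions: 49 of the 202 had no read at 0 min, so a fold there comes from the added read and is not a measurement. The alternative without a read minimum includes such junctions. Its median folds over all 202, 1.74 at 30 min and 1.84 at 60 min, are thus partly set by the added read and the library sizes.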
